A study of Mus musculus with 2 samples.

Results

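The clade A serpins (Serpina genes) encode secreted proteins that the hepatocyte releases into the blood, most of them inhibitors of serine proteases. The 10 genes described here, Serpina1a, Serpina1b, Serpina1c, Serpina1d, Serpina1e, Serpina3k, Serpina3m, Serpina3n, Serpina6 and Serpina10, were taken by symbol, 1 entry each, from the 32285 genes in the files. They were followed in single-cell RNA-seq (10x Genomics 3′ chemistry, in which each captured transcript carries a unique molecular identifier, UMI) of liver cells from 1 WT library and 1 N-LKO library. N-LKO mice lack NgBR, the product of Nus1, in hepatocytes through Cre recombinase driven by the albumin promoter. The mice of both libraries were male, of the C57BL/6 strain, and had received Western diet (WD) over 16 weeks, whereas a high-fat diet stands in the titles of the samples. The WT library held hepatocytes and nonparenchymal cells, and the N-LKO library held those and tumor cells. Whether a library came from 1 animal or several was not given in the sources used here. Genotype, added tumor tissue and library therefore cannot be told apart in any comparison below. Because each group was 1 library, no test was possible. Every interval below is a 95% interval for counting error only, and says nothing of the spread between animals.

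A serpin inhibits its target by offering a reactive loop as bait. Once the protease cuts the loop, the serpin changes shape and traps the enzyme in an inactive complex. Most clade A serpins are N-glycosylated in the ER before they are secreted, and NgBR is a subunit of the enzyme that makes the dolichol lipid on which those glycans are built. In humans a single gene encodes α1-antitrypsin, the main blood inhibitor of neutrophil elastase, whereas the C57BL/6 mouse has the paralogs Serpina1a to Serpina1e in its place. Serpina3k, Serpina3m and Serpina3n belong to a mouse expansion related to α1-antichymotrypsin. Serpina6 (corticosteroid-binding globulin) carries glucocorticoids and inhibits no protease. Serpina10, the protein Z-dependent protease inhibitor, blocks coagulation factors Xa and XIa.

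The members lie together on chromosome 12 over 799.5 kb in the GENCODE M21 annotation of build GRCm38, from chr12:103614786-104414329. Serpina10, Serpina6 and the Serpina1 genes are on the minus strand, and Serpina3k, Serpina3m and Serpina3n on the plus strand. All 10 are protein coding, with 5 exons, or 6 in Serpina1a. In this annotation the Serpina1b span contains Serpina1d and the Serpina3m span contains Serpina3k, and Cell Ranger, the authors' counting program, drops reads that fit more than 1 gene. The Serpina1 transcripts are close to identical where 3′ chemistry reads them. Over the last 500 bases, pairs of Serpina1 transcripts were between 93.8% and 96.6% identical. Stretches of 90 bases found letter for letter in another member made up 14.4% of those 3′ ends in Serpina1c, 10.5% in Serpina1a, 7.54% in Serpina1d and 3.65% in Serpina1b. No such stretch occurred in Serpina1e, Serpina3k, Serpina3m, Serpina3n, Serpina6 or Serpina10, where the share was 0. Levels of Serpina1a to Serpina1d are therefore less certain one by one than as a sum, and Serpina3k and Serpina3n, at 67.5% identity, are easier to separate.

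The libraries held 100171 WT barcodes with 85522287 UMIs and 90147 N-LKO barcodes with 87575064 UMIs. After filtering, 18434 WT cells (median 1401 UMIs) and 19851 N-LKO cells (median 1454 UMIs) formed 24 clusters. All Serpina genes had been left out of the genes used for clustering. Hepatocyte-like cells, named from 12 markers such as Alb and Apoa1, all of them detected in every such cluster, numbered 9949 in WT and 2102 in N-LKO. The hepatocyte-like cells of the libraries barely shared clusters. Most WT hepatocyte-like cells (8178) were in cluster 1, rich in Mup transcripts, which held 69 N-LKO cells. Most N-LKO hepatocyte-like cells (2009) were in cluster 6, led by A2ml1, Spink1 and Dnajc12, with the acute phase genes Orm1, Saa1, Saa2 and Hamp among its top 10 genes, which held 99 WT cells. Nus1, the targeted gene, stood at 74.9 CPM (a gene's UMIs per 1000000 UMIs) in WT cluster 1 and 39.0 CPM in N-LKO cluster 6, but the floxed part is the first exon, outside what 3′ chemistry reads, so these levels do not check the labels. Of the barcode sequences kept as cells, 122 occurred in both libraries. Free RNA (transcripts released from other cells into a droplet), estimated from barcodes under 500 UMIs and from genes of other cell types, made up 63.3% of UMIs in the WT hepatocyte-like class, against 30.4% in N-LKO. Macrophage markers, 10 genes, summed to between 153 and 566 CPM over the hepatocyte-like clusters with at most 1 of them at 0, and endothelial markers, 10 genes, to between 148 and 376 CPM with at most 2 at 0. Their part in the results was not tested.

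As counted, with no free RNA subtracted, the family as a whole differed little between the hepatocyte-like cells of the libraries. The size and direction of this difference changed in other settings, given in the next paragraph. The 10 members summed to 230628 UMIs in WT and 55048 UMIs in N-LKO hepatocyte-like cells, a level of 13733 CPM and 11862 CPM. The share of a single cell's UMIs taken by the family had a median of 1.29% in WT cells (10th to 90th percentile 0.669% to 2.07%) and 1.11% in N-LKO cells (0.485% to 1.99%). The summed level was thus 1.16-fold lower in N-LKO (log2 ratio -0.21, interval -0.22 to -0.20), while the median over all 9933 genes with at least 5 CPM in either library was 0.04. Beneath this small change in the sum the members separated. Relative to WT, Serpina3n and Serpina10 were over 2-fold higher, and none of the 10 was over 2-fold lower. Past 2-fold were 5.43% of all genes in the higher direction and 3.34% in the lower, so the 2 of 10 rest on few genes. A lower level was found for 6 of the 10 members and a higher level for 4, with a median log2 ratio of -0.18.

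These class-wide values depended on which cells were counted and on whether free RNA was subtracted. With cells of at most 10% mitochondrial UMIs, 679 in WT and 218 in N-LKO, the family sum was higher in N-LKO (log2 ratio 0.66), and Serpina1c, Serpina1d, Serpina3k, Serpina3m and Serpina6 also turned. The median mitochondrial share was 6.96% in cluster 19 (325 WT and 0 N-LKO cells) and 21.7% in cluster 1. Their family sums in WT were 3867 and 14862 CPM. Which clusters the cells under this limit came from was not counted, and its part was not tested. With the estimated free RNA subtracted, the sum was 23452 CPM in WT against 14744 CPM in N-LKO (-0.67). With the unnamed N-LKO cluster 7 counted as hepatocyte-like, it was -0.88. Only Serpina1e, Serpina3n and Serpina10 kept their direction in all 10 alternatives run for each member, at -1.47 to -0.08, 0.38 to 2.02 and 0.60 to 1.5. Serpina3n was no longer past 2-fold with free RNA subtracted, at 179 CPM in WT against 233 CPM in N-LKO, nor was Serpina10, at 88.1 and 133 CPM. Relative to the median of all genes, 1 member was past 2-fold higher and 0 lower, beside 5.07% and 3.54% of all genes. Among genes with at least 50 CPM the members counted 2 and 0, beside 4.13% and 3.96%. Past 1.5-fold, 2 members were higher and 2 lower, beside 14.2% and 8.95%.

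**Figure D1:**
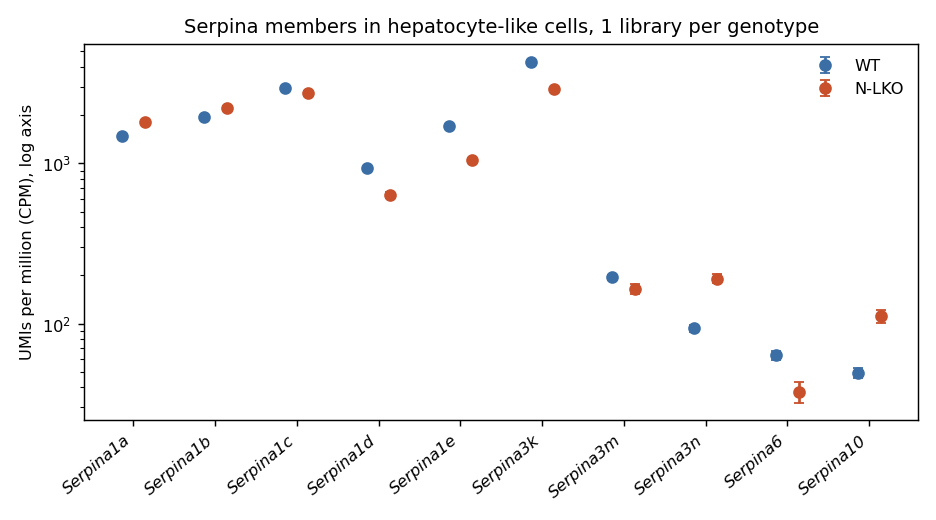
Level of each Serpina member in hepatocyte-like cells of WT (blue) and N-LKO (orange) mice, in CPM on a log axis, with 95% Poisson intervals for counting error. Serpina3n and Serpina10 are higher in N-LKO, at 190 and 111 CPM, and Serpina1e and Serpina3k are lower, at 1053 and 2902 CPM.

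The Serpina1 genes together made up most of the family, and their balance shifted. Summed, they stood at 9030 CPM in WT against 8457 CPM in N-LKO hepatocyte-like cells. Serpina1c was the most abundant of the 5 in both libraries, at 2965 CPM in WT against 2742 CPM in N-LKO (log2 ratio -0.11, -0.14 to -0.08). Serpina1a was at 1483 CPM in WT against 1802 CPM in N-LKO (0.28, 0.24 to 0.32). These 2 paralogs thus lay on opposite sides of equality, each by a small margin. Serpina1b, at 1934 and 2222 CPM (0.20, 0.17 to 0.23), lay on the side of Serpina1a. With the minimum of UMIs per cell lowered to 500, Serpina1a and Serpina1b turned, to -0.34 and -0.36. Serpina1d was at 933 CPM in WT against 638 CPM in N-LKO (-0.55, -0.61 to -0.49). Serpina1e was at 1714 and 1053 CPM (-0.70, -0.75 to -0.66), the largest difference of the 5 and lower by 1.63-fold in N-LKO. As parts of the Serpina1 UMIs, Serpina1a and Serpina1b went from 16.4% and 21.4% in WT to 21.3% and 26.3% in N-LKO. Serpina1c held its share, at 32.8% and 32.4%, and Serpina1d and Serpina1e went from 10.3% and 19% to 7.55% and 12.4%. The Serpina1 share of the whole family was 65.8% in WT (65.6% to 65.9%) and 71.3% in N-LKO (70.9% to 71.7%).

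The proximal promoters of the Serpina1 genes are shown so that the 5 genes, which did not move in 1 direction, can be compared letter by letter. A stretch of 100 bases was taken from the RefSeq promoters of build GRCm38.p6, aligned on the letters GTTAAT, which begin at base 86 of each. All 5 stretches are on the minus strand, at chr12:103863626-103863725 (Serpina1a), chr12:103738201-103738300 (Serpina1b), chr12:103904963-103905062 (Serpina1c), chr12:103773635-103773734 (Serpina1d) and chr12:103956961-103957060 (Serpina1e). Capitals mark bases that differ from Serpina1c.
Serpina1a: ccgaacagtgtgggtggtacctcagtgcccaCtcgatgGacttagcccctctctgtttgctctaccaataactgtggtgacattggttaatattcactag
Serpina1b: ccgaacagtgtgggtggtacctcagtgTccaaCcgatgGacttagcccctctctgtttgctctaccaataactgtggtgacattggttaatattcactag
Serpina1c: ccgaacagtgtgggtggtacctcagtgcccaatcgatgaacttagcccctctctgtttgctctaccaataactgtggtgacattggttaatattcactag
Serpina1d: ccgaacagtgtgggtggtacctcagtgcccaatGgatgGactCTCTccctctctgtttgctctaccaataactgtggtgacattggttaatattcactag
Serpina1e: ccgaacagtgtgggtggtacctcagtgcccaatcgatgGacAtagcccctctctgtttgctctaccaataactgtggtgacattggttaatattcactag

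Serpina1a and Serpina1e each differed from Serpina1c at 2 of the 100 bases, Serpina1b at 3 and Serpina1d at 6. Each stretch was cut around the letters GTTAAT, so every stretch holds these letters by construction. Their distance to the RefSeq start was 16 to 27 bases in Serpina1a to Serpina1d and 78 bases in Serpina1e, whose start lies further downstream. On either strand, GTTAAT occurred in 7.1% of the 32851 promoters of 300 bases in the table. Of the 10 members, 6 had a promoter there, and Serpina3n was the only one of them without these letters. The Serpina1 stretches are near copies of one another, so their matches are not independent. TTCNNNGAA, the letters of a STAT site, occurred in none of the 6 windows and in 8.3% of all promoters.

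Among the Serpina3 genes, the most abundant was lower in N-LKO and the one least abundant in WT was higher. Serpina3k, whose product binds tissue kallikrein, was the most abundant of all 10 members, with 72250 UMIs in WT and 13467 UMIs in N-LKO. Its level was 4302 CPM in WT against 2902 CPM in N-LKO, lower by 1.48-fold (log2 ratio -0.57, -0.59 to -0.54), and its share of the family went from 31.3% to 24.5%. Serpina3m stood at 195 CPM in WT against 164 CPM in N-LKO (-0.24, -0.36 to -0.13). Serpina3n, an acute phase serpin that inhibits cathepsin G and granzyme B, was at 93.7 CPM from 1574 UMIs in WT against 190 CPM from 883 UMIs in N-LKO, higher by 2.03-fold (1.02, 0.90 to 1.14). Relative to the median of all genes its log2 ratio was 0.98, just inside 2-fold. With every cell thinned to 1000 UMIs, Serpina3n was seen in 8.30% of the WT cells of the hepatocyte-like class and in 16.3% of the N-LKO ones (14.2% and 30.2% before thinning). In T-like cells, which should lack it, the thinned share was 2.17% in WT and 5.11% in N-LKO. The median depth was 1519 and 1950 UMIs in hepatocyte-like cells and 1164 and 1236 UMIs in T-like cells.

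The 2 least abundant members diverged. Serpina6, the glucocorticoid carrier, was at 63.3 CPM from 1063 UMIs in WT against 37.3 CPM from 173 UMIs in N-LKO, lower by 1.69-fold (log2 ratio -0.76, -1 to -0.53). Serpina10, the inhibitor of factors Xa and XIa, was at 49.3 CPM from 828 UMIs in WT against 111 CPM from 515 UMIs in N-LKO, higher by 2.25-fold (1.17, 1.01 to 1.33), the largest difference of the 10. After thinning, Serpina10 was seen in 4.74% of WT cells of that class and in 9.47% in N-LKO. The shares among T-like cells were 1.97% and 3.52%. Proz, the protein Z cofactor of Serpina10, and its targets F10 and F11 were not higher past 2-fold. They stood at 98.1, 150 and 26.9 CPM in WT and at 76.1, 153 and 17.5 CPM in N-LKO.

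Because WT and N-LKO hepatocyte-like cells lay in different clusters, the members were also compared by cluster. Between the main clusters, N-LKO cluster 6 and WT cluster 1, 1 member was higher past 2-fold (Serpina10, 113 against 51.3 CPM) and 0 were lower, beside 6.55% and 3.19% of all genes. In cluster 6, with 99 WT and 2009 N-LKO cells, the summed level was 10590 CPM in WT against 11836 CPM in N-LKO (log2 ratio 0.16, 0.10 to 0.22), the opposite direction to all hepatocyte-like cells. Serpina3k turned as well, at 2408 CPM in WT against 2870 CPM in N-LKO (0.25, 0.12 to 0.39), and so did Serpina1d, at 484 CPM (99 UMIs) and 632 CPM (0.38, 0.09 to 0.69). Serpina1c was also higher, at 2192 and 2737 CPM (0.32, 0.18 to 0.46). Within WT alone, cluster 6 compared with cluster 1 was at 2408 against 4770 CPM for Serpina3k (-0.98, -1.12 to -0.86) and at 484 against 1006 CPM for Serpina1d (-1.05, -1.35 to -0.77). Serpina1e did not turn. It was at 1610 CPM in WT against 1056 CPM in N-LKO cells of cluster 6 (-0.61, -0.77 to -0.44), and at 1869 and 1230 CPM in cluster 1, where the N-LKO value came from 139 UMIs in 69 cells (-0.60, -0.85 to -0.36). The estimated free RNA share was 26.5% and 29.9% in cluster 6 and 66.3% and 53.6% in cluster 1, and Serpina1e was also lower in N-LKO free RNA. Its part was not tested.

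Serpina10 also kept its direction in cluster 6, at 53.8 CPM from 11 UMIs in WT against 113 CPM in N-LKO (1.00, 0.21 to 2.08). Serpina3n was at 127 CPM from 26 UMIs and 193 CPM (0.57, 0.04 to 1.22), and Serpina6 at 68.5 CPM from 14 UMIs and 36.5 CPM (-0.95, -1.70 to -0.01). In cluster 1 the intervals of Serpina3n, Serpina6 and Serpina10 all included 0, with 15, 8 and 8 N-LKO UMIs. Past 2-fold in cluster 6 were 12.2% of all genes in the higher and 11.8% in the lower direction, against 1 and 0 of the 10 members. In cluster 1 the shares were 25.7% and 10.1%, and no member passed 2-fold in either direction.

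**Figure D2:**
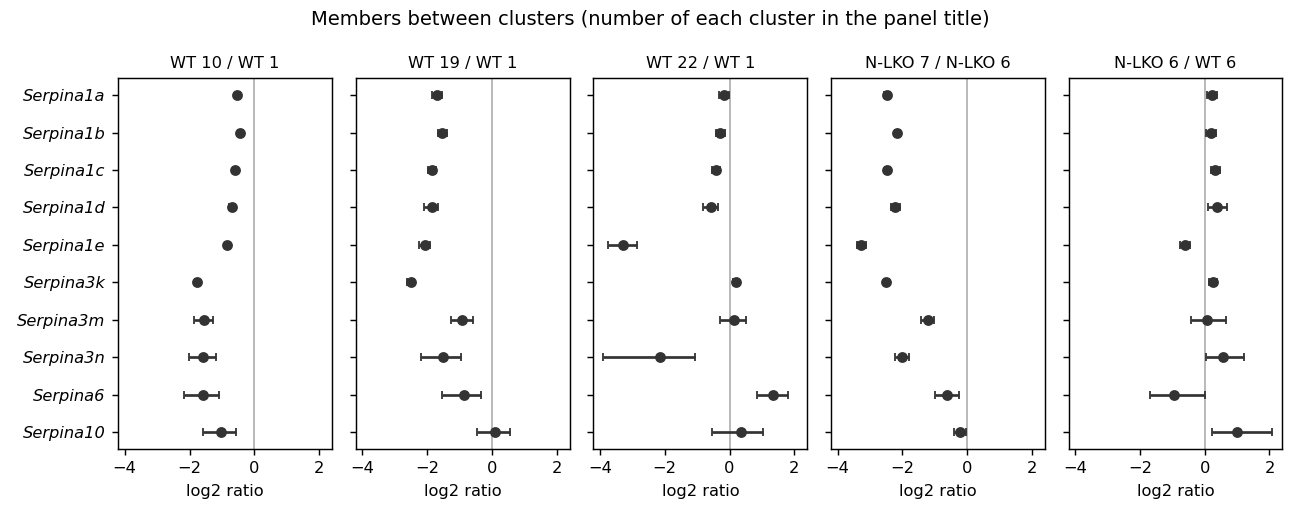
Log2 ratio of each member's level between 2 clusters, with exact 95% counting intervals. In each panel the title names the numerator and then the denominator. Serpina1e is far lower in WT cluster 22 than in WT cluster 1, Serpina10 is near 0 for WT cluster 19 and N-LKO cluster 7, and Serpina1e alone of the Serpina1 genes is lower in N-LKO within cluster 6.

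Within WT, the members also differed between hepatocyte-like clusters, and the largest of these differences was that of Serpina1e in the pericentral cells. Cluster 22 (150 WT cells) was led by Mup9 and Oat, with the pericentral genes Cyp2c29, Slc1a2 and Glul also among its top 10 genes, and its 10 pericentral markers summed to 27125 CPM, against 2593 CPM in cluster 1. Serpina1e was at 191 CPM there from 45 UMIs, against 1869 CPM in cluster 1, lower by 9.69-fold (log2 ratio -3.28, -3.75 to -2.87), and the estimate for free RNA alone in cluster 22 was 241 CPM. The Serpina1e level of these cells was thus no higher than free RNA would give. The other Serpina1 genes were within 1.5-fold of cluster 1, from -0.16 for Serpina1a to -0.57 for Serpina1d. Serpina3k was at 5453 CPM, above its 4770 CPM in cluster 1 (0.19, 0.11 to 0.27). Serpina3n was at 21.2 CPM from 5 UMIs against 103 CPM (-2.15, -3.91 to -1.06). Serpina6 went the other way, at 170 CPM from 40 UMIs against 67.0 CPM (1.36, 0.85 to 1.80). Over all genes 12.2% were higher and 14.7% lower past 2-fold in cluster 22, against 1 and 2 of the 10 members.

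All hepatocyte-like cells of a library were also ranked by a score, the UMI share of pericentral markers less that of periportal markers, and cut into 5 equal bins. All 150 WT cells of cluster 22 fell in WT bin 5, so that bin is not separate from the cluster. The bins were cut within each library and are not the same zones in both, since the pericentral markers summed to 8040 CPM in bin 5 of WT against 5713 CPM in N-LKO, so levels are compared along the bins of 1 library only. The score used no Serpina gene, and the bins are ranges, not cell types, with 7350 of 9949 WT cells and 1519 of 2102 N-LKO cells within 0.1% of UMIs of a cut. In WT, Serpina1e was at 2366, 2005, 1606, 1363 and 1075 CPM from the most periportal to the most pericentral bin. In N-LKO it was at 1800, 1374, 1011, 744 and 306 CPM. The difference from bin 1 to bin 5 was 2.20-fold in WT (log2 ratio -1.14, -1.20 to -1.08) and 5.87-fold in N-LKO (-2.55, -2.74 to -2.37). The estimated free RNA share was 43.4% in bin 1 and 67.6% in bin 5 of WT and 27.6% and 28.3% in N-LKO, and free RNA alone would give 669 CPM of Serpina1e in bin 5 of WT against 80.0 CPM in N-LKO. After subtracting free RNA in each bin, an alternative chosen after seeing the data, the difference was 2.73-fold in WT and 7.54-fold in N-LKO, and without the cells of cluster 22, chosen likewise, it was 2.06-fold in WT. Past 2-fold lower in bin 5 were 1.24% of all genes in WT and 6.32% in N-LKO, against 1 member in WT and 2 in N-LKO. Higher were 4.33% and 9.11% of all genes and no member.

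Serpina1c was the second of these in N-LKO, at 3748 CPM in bin 1 and 1620 CPM in bin 5 (-1.21, -1.30 to -1.12), whereas in WT it went from 3458 to 2568 CPM (-0.43, -0.47 to -0.39). Serpina3k, which was higher in cluster 22 than in cluster 1, went the other way along the bins, from 4895 to 4050 CPM in WT (-0.27, -0.31 to -0.24) and from 3691 to 2568 CPM in N-LKO (-0.52, -0.60 to -0.45). Its WT direction turned once free RNA was subtracted, at 7279 CPM in bin 1 and 8789 CPM in bin 5. Serpina3n went from 102 to 79.8 CPM in WT (-0.35, -0.59 to -0.12), which turned to 146 and 153 CPM after that subtraction, and from 175 to 196 CPM in N-LKO (0.16, -0.16 to 0.47). Serpina1b had the flattest course of the 5 Serpina1 genes in N-LKO, from 2426 to 1919 CPM. In WT it went from 2241 to 1700 CPM (-0.40, -0.45 to -0.35), an interval that held the ratios of Serpina1a and Serpina1c, both -0.43. Serpina6 was highest in bin 5, going from 57.2 to 79.4 CPM in WT (0.47, 0.21 to 0.75) and from 32.3 to 50.9 CPM in N-LKO (0.65, -0.04 to 1.37), where 30 and 46 UMIs leave an interval that includes 0. Serpina10 did not separate the end bins, at 51.0 and 45.9 CPM in WT (-0.15, -0.47 to 0.17) and 85 and 86.2 CPM in N-LKO (0.02, -0.45 to 0.49), and was highest in bin 4 of N-LKO at 131 CPM. In WT, Serpina3m and Serpina10 also turned after the subtraction. Median depth fell from 1683.5 to 1419 UMIs from bin 1 to bin 5 in WT and was 1905 and 1918.5 UMIs in N-LKO, and its part was not tested.

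**Figure D3:**
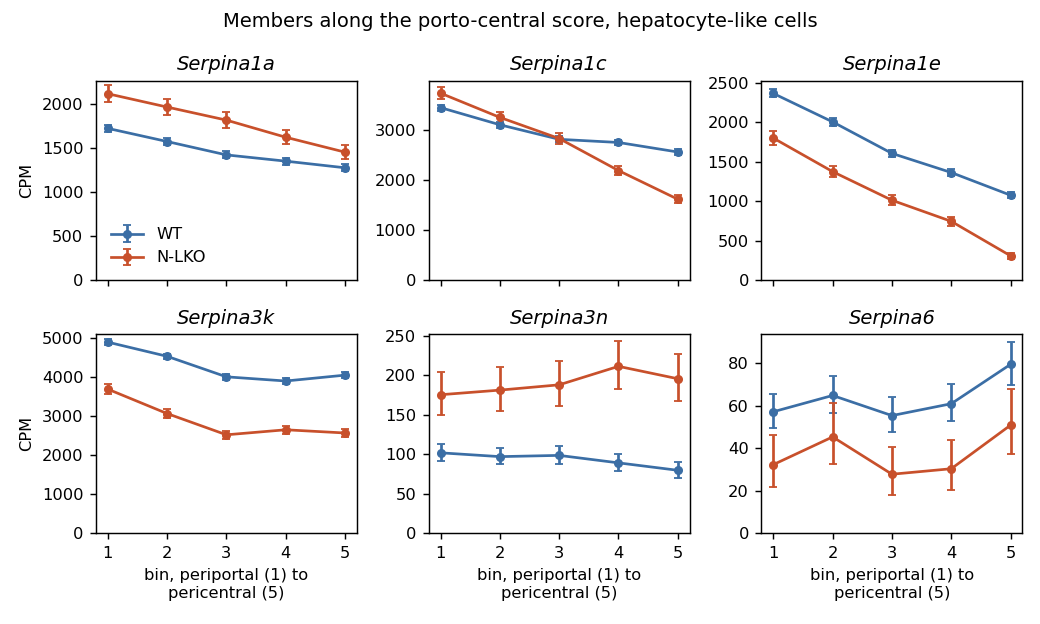
Level of 6 members (CPM, axes from 0) in 5 equal bins of hepatocyte-like cells ordered from periportal (bin 1) to pericentral (bin 5), for WT (blue) and N-LKO (orange), with 95% Poisson intervals. The bins were cut separately in each library. Serpina1e is lower toward bin 5 in both, from 2366 to 1075 CPM in WT and from 1800 to 306 CPM in N-LKO.

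The 2 clusters rich in the nuclear RNA Malat1 held little RNA of the abundant members, while Serpina10 stood near its level in the main cluster of each library. WT cluster 19 (325 cells) had 35600 CPM of Malat1 against 8828 CPM in cluster 1, and its family sum was 3867 CPM, lower by 3.84-fold. Serpina3k was at 836 CPM there, lower by 5.70-fold than in cluster 1, while Serpina10 was at 53.6 CPM against 51.3 CPM (log2 ratio 0.08, -0.46 to 0.55). Serpina6 (-0.88) and Serpina3m (-0.91) were also within 2-fold of cluster 1, and the median of all genes was 0.59, above Serpina10. Past 2-fold, 37.3% of all genes were higher and 9.26% lower in cluster 19, against 0 and 7 of the 10 members. In N-LKO, cluster 7 (2047 cells, with 1 WT cell) was not named by the markers. Its 12 hepatocyte markers, all detected, summed to 15935 CPM against 66277 CPM in cluster 6, and its Malat1 level was 19965 CPM. It also carried the hepatocyte receptor transcript Ghr at 3079 CPM, above the 640 CPM of cluster 6.

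In cluster 7 the family summed to 2316 CPM, against 2225 CPM estimated for free RNA alone. For this cluster the estimate was scaled on hepatocyte genes, so hepatocyte RNA made by its own cells counts as free RNA. A level near or below the estimate therefore cannot show whether these cells make the transcript. Serpina1c and Serpina3k were below that estimate, at 496 against 534 CPM and 510 against 546 CPM. Serpina10 was well above it, at 96.6 CPM from 384 UMIs against 25.4 CPM, and close to the 113 CPM of cluster 6 (-0.22, -0.42 to -0.03). Serpina10 also exceeded its estimate in N-LKO endothelial-like cells (43.1 against 25.9 CPM) and in cholangiocyte-like, T-like and neutrophil-like cells. In B-like, erythroid-like and macrophage-like cells it did not. Within cluster 7, Serpina6, at 23.9 against 9.69 CPM, and Serpina3m, at 70.4 against 33.2 CPM, were also above the estimate. Relative to cluster 6, Serpina6 was within 2-fold (-0.61) and Serpina3m was not (-1.21), while the median of all genes was 0.68. After thinning, Serpina10 was seen in 8.55% of cluster 7 cells and 10.1% of cluster 6 cells, against 9.77% and 38.7% for Serpina1e. Compared with cluster 6, 40.7% of all genes were higher and 15% lower past 2-fold in cluster 7, against 0 and 8 of the 10 members. WT cluster 10 (1197 cells) had the lowest Malat1 level of the hepatocyte-like clusters, 1500 CPM, and a family sum of 7925 CPM. There Serpina3k was at 1407 CPM, lower by 3.39-fold than in cluster 1 (-1.76, -1.83 to -1.70), and Serpina1b at 1505 CPM, lower by 1.36-fold. Of the 10 members, 5 were lower past 2-fold there and 0 higher, against 22.0% and 12.1% of all genes. The share of UMIs from mitochondrial genes was 20.9% in cluster 1, 15% in cluster 10 and 7.55% in cluster 19.

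**Figure D4:**
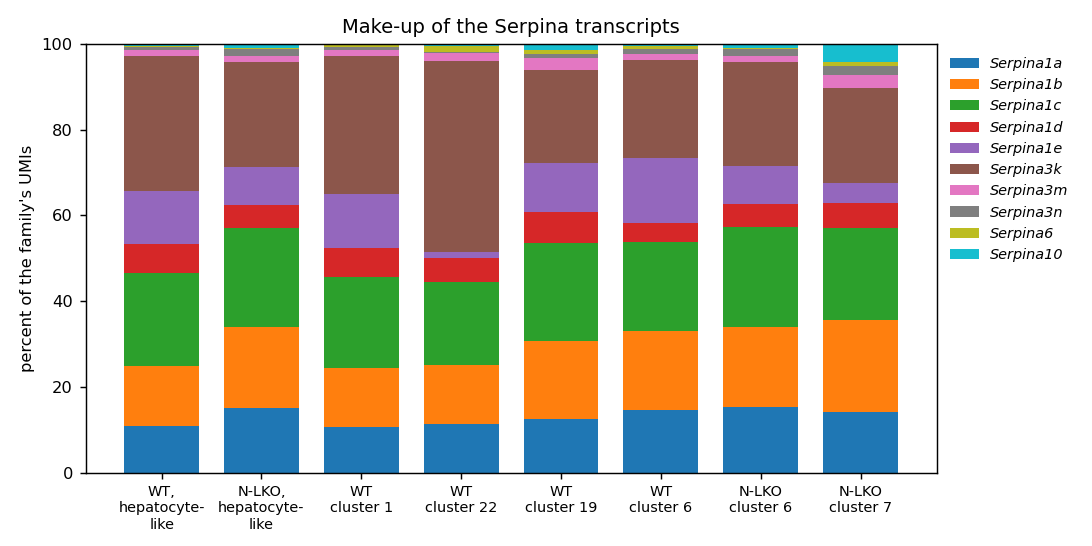
Share of each member in the UMIs of the 10 genes (percent, bars from 0 to 100) for hepatocyte-like cells of both libraries and for single clusters. Serpina1e is at 1.56% in the pericentral WT cluster 22, and Serpina10 takes its largest share of the bars shown, 4.17%, in N-LKO cluster 7.

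Outside hepatocyte-like cells the family sum lay closer to the level that free RNA alone would give, here scaled on hepatocyte genes in the same cells. In WT the lower end of its interval was above that level in all 7 other named classes. The 50 erythroid-like cells were furthest above, at 7806 against 5084 CPM. In N-LKO the sum was above it in cholangiocyte-like (2346 against 1965 CPM), endothelial-like and macrophage-like cells, but not in B-like, T-like, erythroid-like or neutrophil-like cells. It ranged from 3769 to 7806 CPM over the 7 other named classes of WT and from 2015 to 2865 CPM over those of N-LKO. In endothelial-like cells it was 4406 CPM in WT against 2450 CPM in N-LKO, where free RNA alone would give 3592 and 2270 CPM. In macrophage-like cells it was 3798 and 2015 CPM, against 2899 and 1880 CPM. The higher level in WT classes thus accompanied a higher level in WT free RNA, which held 8096 CPM of the family against 5274 CPM in N-LKO. Of 70 pairs of member and class in each library, the lower end of the interval was above the free RNA estimate in 38 pairs in WT and 23 in N-LKO, mostly for Serpina1 genes. With the profile taken from barcodes under 400 UMIs the counts were 29 and 18. Serpina1b, for example, was at 812 against 630 CPM in WT endothelial-like cells. No such count was made over all genes, so the counts of pairs do not set the members apart from other genes. Serpina1e was lower in N-LKO free RNA (283 against 989 CPM) and Serpina10 higher (60.2 against 26.8 CPM), the same directions as in hepatocyte-like cells.

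**Figure D5:**
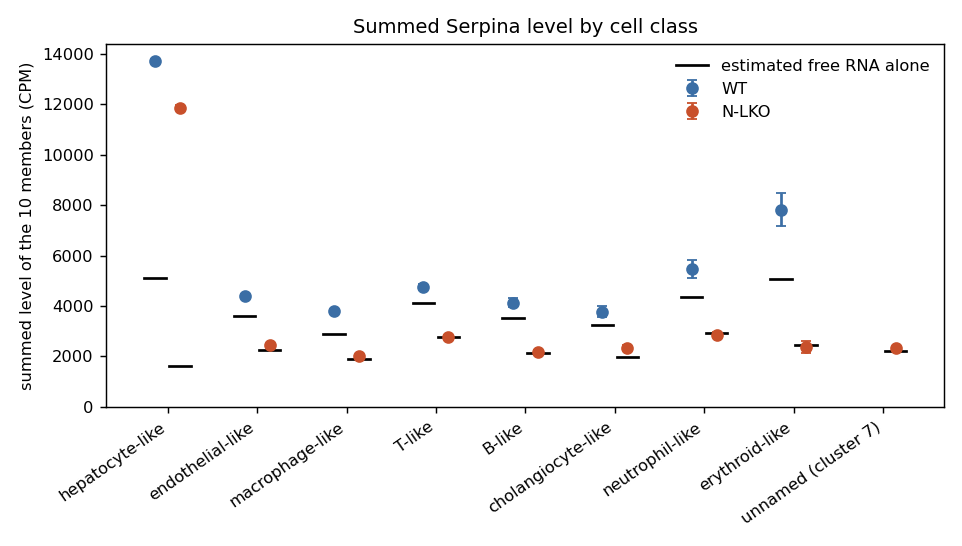
Summed level of the 10 members by cell class (CPM, axis from 0) in WT (blue) and N-LKO (orange), with 95% Poisson intervals, beside the level estimated for free RNA alone (black bars). Hepatocyte-like cells stand at 13733 and 11862 CPM, and the other classes lie closer to their black bars than hepatocyte-like cells do.

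Some other serpins of hepatocyte-like cells differed more than any member. Of 14 other clade A serpins in the files, 5 reached 5 CPM, 1 was higher past 2-fold and none was lower. The one was Serpina7, thyroxine-binding globulin, at 39.5 CPM in WT against 170 CPM in N-LKO, higher by 4.30-fold (log2 ratio 2.10, 1.95 to 2.26). Serpina12, Serpina11 and Agt, the angiotensin precursor, lay within 2-fold, at 0.08, 0.50 and -0.08. Of 14 serpins of other clades, 12 reached 5 CPM, 4 were higher and 1 was lower. Over all genes, 5.43% were higher and 3.34% lower past 2-fold. Among the serpins of other clades that were higher, Serpinb6b, Serpinb6a and Serpinb1a were so by 5.27-fold, 2.26-fold and 2.81-fold, from WT levels of only 4.41, 21.1 and 3.69 CPM. Serpine2, protease nexin-1, was lower by 4.22-fold, from 17.7 to 4.09 CPM. Of the serpins in both lists with at least 50 CPM in either library, only Serpina7 was past 2-fold. The abundant coagulation serpins Serpinc1 (antithrombin) and Serpind1 (heparin cofactor II) were at 582 and 185 CPM in WT and 561 and 141 CPM in N-LKO. The complement serpin Serping1 was at 285 and 350 CPM.

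The partners and the ER folding genes held no gene past 2-fold, beside 5.43% of all genes higher and 3.34% lower. Of 12 partner genes, 8 reached 5 CPM and none was past 2-fold. Klkb1, plasma kallikrein, was nearest, at 210 CPM in WT against 109 CPM in N-LKO (-0.95, -1.08 to -0.81). Of 14 genes of ER folding and glycoprotein disposal, all reached 5 CPM and none was past 2-fold, with a median of 0.11. The chaperone Hspa5 went from 476 to 853 CPM (0.84, 0.79 to 0.90) and Pdia3 from 187 to 312 CPM (0.74, 0.64 to 0.83), while the glycoprotein lectin Canx went from 299 to 328 CPM.

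Of 14 liver transcription factors and cytokine signaling genes, all reached 5 CPM. Past 2-fold, 3 were higher and none was lower, beside 5.43% and 3.34% of all genes. Socs3, the feedback inhibitor of IL-6 signaling, was at 1.91 CPM from 32 UMIs in WT against 8.62 CPM from 40 UMIs in N-LKO (2.17, 1.47 to 2.90). Cebpb, an acute phase regulator, was at 111 and 225 CPM (1.02, 0.91 to 1.13), which was 0.98 and so inside 2-fold relative to the median of all genes, and Onecut1 at 16.9 and 36.4 CPM (1.11, 0.83 to 1.39). Cebpa was at 94.9 CPM in WT against 57.3 CPM in N-LKO (-0.72, -0.92 to -0.54), and Hnf4a at 156 and 175 CPM.

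The genes most like each member were found by Pearson correlation of log2(CPM + 1) over 24 profiles, the hepatocyte-like clusters and other classes of both libraries, among 5680 genes without serpins. These profiles share their libraries and their free RNA, so the values are a description only. Serpina1a, Serpina1b and Serpina1c were most like C8g, a complement subunit, with r of 0.975, 0.984 and 0.975. Serpina1d was most like Mup3 (0.960), and Serpina3k most like Scd1, a fatty acid desaturase (0.977). Serpina1e was most like Hamp, which encodes hepcidin (0.977), with Wfdc21 (0.929) next. Serpina3n was most like Hpx, hemopexin (0.965), an acute phase protein, and Serpina10 most like C4bp (0.933), Qsox1 (0.924) and the acute phase gene Crp (0.904). Serpina6 was most like Klkb1 (0.910) and Serpina3m most like Mettl7b (0.936).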

How the data were processed

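Liver cells of 1 WT and 1 N-LKO library were profiled. The authors deposited UMI counts per gene and barcode, made with Cell Ranger 7.1.0 per the file headers. The labels name mm9 as the build, and the printed coordinates are GENCODE M21 (32158 of the 32285 gene IDs matched). Barcodes with at least 1000 UMIs, at least 400 genes and at most 30% mitochondrial UMIs were kept, and Scrublet scores over 0.25 were removed. The study mapped fewer cells than were kept here. Cells of both libraries were clustered together (Scanpy 1.11.5, leidenalg 0.10.2, 2000 variable genes without Serpina genes, 30 components, resolution 0.3) and named from marker lists, so class names were rebuilt here.

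UMIs were summed per class or cluster, with 0.5 UMI added for ratios only. Intervals are exact (Poisson for CPM, conditional binomial for ratios, Clopper-Pearson for shares) and cover counting error only. Genes with at least 5 CPM in either library entered the 2-fold counts. The ratio step was tested on simulated data. Free RNA profiles came from barcodes under 500 UMIs, which may include cells. The free RNA share was scaled on genes of other cell types in hepatocyte-like cells and on hepatocyte genes in all other cells. The text names the 10 members, genes of the lists past 2-fold with up to 4 more per list, markers, and genes most like each member. A few genes of the lists are not reported here by name. The members and lists were chosen with earlier results of these data known. Alternatives changed the UMI minimum, mitochondrial limit, doublet removal, free RNA, scaling, cells averaged, Malat1 clusters, resolution, expression minimum and fold.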

Additional observations from a re-analysis of the deposited data

How the results depend on the processing

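No value here has a test, and depth limits the least abundant members most, since Serpina6 and Serpina10 rest on 14 and 11 UMIs in WT cluster 6. No paired analysis was possible because each group was 1 library. The reclustered limit of 10% mitochondrial UMIs left 15 hepatocyte-like N-LKO cells and gave no value. Counting cluster 7 as hepatocyte-like and applying the 10% limit on the same clusters were chosen after seeing the data. Except where a construction shows it, the cause of each change was not tested.

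The family sum (log2 ratio -0.21) was -0.70 at a UMI minimum of 500, -0.23 without doublet removal, -0.67 with free RNA subtracted, -0.28 scaled to nuclear-encoded genes, -0.25 relative to the median of all genes, -0.18 as a mean over cells, -0.32 without the WT clusters 10 and 19 (Malat1 over 3-fold from the class), -0.88 with cluster 7, and reversed to 0.66 at the 10% limit. Members past 2-fold higher in N-LKO, 2 as reported, were 0 with free RNA subtracted and 1 at a UMI minimum of 500, without doublet removal, scaled to nuclear-encoded genes, relative to the median, without clusters 10 and 19 and with cluster 7. Members past 2-fold lower, 0 as reported, were 2 at a UMI minimum of 500, 3 with free RNA subtracted and 4 with cluster 7, and 2 were past 1.5-fold.

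The Serpina1 share in WT (65.8%) was 69.6% at a UMI minimum of 500, 59.8% with free RNA subtracted, 64.9% without clusters 10 and 19 and 76.5% at the 10% limit. In N-LKO (71.3%) it was 70.6% at a UMI minimum of 500, 70.2% as a mean over cells, 70.8% with cluster 7 and 74.2% at the 10% limit, where the order of the libraries turned. The ratio of Serpina1a reversed to -0.34 at a UMI minimum of 500 and -0.40 with cluster 7. Serpina1b reversed to -0.36, to -0.44 and, with free RNA subtracted, to -0.049. At the 10% limit Serpina1c reversed to 0.73, Serpina1d to 0.15, Serpina3k to 0.76, Serpina3m to 0.15 and Serpina6 to 0.21.

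Other serpins lower in N-LKO, 1 as reported, were 2 at a UMI minimum of 500 and with free RNA subtracted, and 0 at the 10% limit and among genes with at least 50 CPM, where 1 was higher in place of 5. Over partners, ER handling genes and transcription factors, 3 were higher and 0 lower as reported. Higher were 2 without doublet removal, scaled to nuclear-encoded genes and relative to the median, 4 at the 10% limit, 7 at a UMI minimum of 500, 6 with cluster 7, 1 with at least 50 CPM and 8 past 1.5-fold. Lower were 1 at a UMI minimum of 500, scaled to nuclear-encoded genes, without clusters 10 and 19 and with cluster 7, 2 at the 10% limit, 3 past 1.5-fold and 6 with free RNA subtracted. For these lists too, shares over all genes exist only for the main, median, 50 CPM and 1.5-fold settings.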
